A study of Homo sapiens with 3 samples.

Results

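Keratin genes were described by the accessible chromatin found at and between them in hCMEC/D3. These are cultured human endothelial cells of brain microvessels that have been immortalized. Members were the protein-coding genes of chromosomes 12 and 17 whose symbol is KRT followed by digits and at most 1 letter in a RefSeq gene table of GRCh38.p14. This gave 55 of the 20037 protein-coding genes of that table, 27 on chromosome 12 and 28 on chromosome 17. The choice used symbols and positions, not peak values. The material was 1 ATAC-seq library, replicate 2, of untreated cells at passages 4 to 6, grown to confluence on collagen in endothelial medium. ATAC-seq uses the Tn5 transposase to tag open DNA, and the authors' list holds 106415 broad peaks called from 22188172 tags. The line is a single one, and no second ATAC library or other cell type was compared, so each result is a description of 1 library with no test between conditions. The 2 RNA libraries of the series were not analysed here, because their tables name transcripts that the reference tables used do not link to genes.

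Keratins are the intermediate filament proteins of epithelial cells. Type I keratins, encoded mainly on chromosome 17, and type II keratins, encoded on chromosome 12, pair to build each filament. KRT18 is the exception in position, a type I gene that lies beside its type II partner KRT8 on chromosome 12. Simple epithelia use KRT8 and KRT18 with KRT7, KRT19 or KRT20, stratified epithelia use pairs such as KRT5 with KRT14 and KRT1 with KRT10, and hair and nail have their own set. Endothelial cells are built mainly on vimentin.

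Most keratin genes carried no peak. A peak in the gene or within 1 kb of it was called at 22 of 55 genes (40%, 95% Wilson interval 28.1% to 53.2%), against 83.7% of all protein-coding genes. Among protein-coding genes within the length range of keratin genes, 2.99 to 52.7 kb, the share was 84.4%. Only the range was matched: these genes had a median length of 16.3 kb, against 6.43 kb for keratin genes. Over chromosomes 12 and 17 the share was 85.9%, and among the 111 other protein-coding genes within 1 Mb of either cluster it was 92.8%. A peak within 1 kb of either gene end was found at 16 of 55 keratin genes (29.1%, 18.8% to 42.1%), against 72.8% of protein-coding genes and 74.8% of those in that length range. On chromosome 12, 13 of 27 genes had a peak in the gene or within 1 kb, and on chromosome 17, 9 of 28. The peaks were also shorter than at other genes, and their median pileup was lower. Pileup is the authors' value of overlapping extended tags, 1 per peak region. It need not be a whole number (77.39 tags at 1 peak), so it is not a count at a single position. The highest peak of each gene by this value had a median pileup of 24.1 tags, compared with 47.8 over all protein-coding genes with a peak. The 95% binomial interval of the keratin median, 17.4 to 51.6 tags over 22 genes, includes 47.8. The median length of these peaks was 432 bp (326 to 587 bp), compared with 949 bp. The Wilson intervals here run over genes and cover sampling of genes only, and neighbouring keratin genes can share a peak. A window of 2500 bp raised the share with a peak near an end to 50.9%, against 79.2% of all protein-coding genes in the same window.

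**Figure D1:**
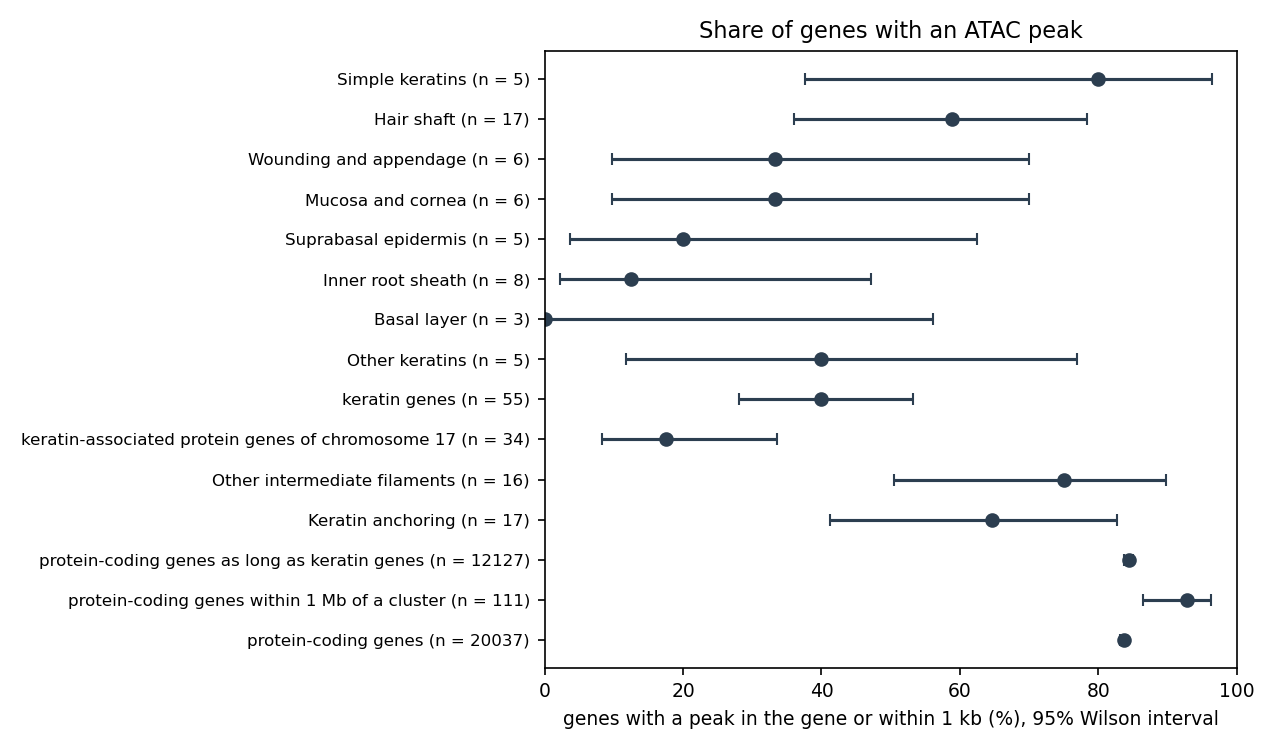
Share of genes with a peak in the gene or within 1 kb of it (percent), with 95% Wilson intervals over genes, for the keratin groups, all keratin genes and other gene sets. Keratin genes stand at 40% and all protein-coding genes at 83.7%, where the interval is narrower than the point.

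At the starts listed for keratin genes in the promoter table, 1 per gene, no peak was called. RefSeq promoter windows of GRCh38.p14, 250 bases before to 50 bases after the annotated start, were matched for 34 of the 55 members, all on the minus strand. None of the 34 overlapped a peak, whereas 67.0% of the 15843 windows of protein-coding genes did. For members with an entry this allows a share of up to 8.82%, which is 3 divided by the number of windows. A gene can have other starts: the listed start was the 5′ end of the gene extent for 28 of the 34 and lay inside the extent for 6, by 23.4 kb at KRT8 and 12.2 kb at KRT73. Around the 5′ ends of the extents, a peak lay within 1 kb at 3 of the 34, of up to 77.4 tags at KRT8, 27.6 at KRT75 and 17.6 at KRT73. The members without an entry were KRT1, KRT6A, KRT6B, KRT6C, KRT7, KRT72, KRT77, KRT78, KRT80, KRT81, KRT83 and KRT86 on chromosome 12 with KRT18, and KRT13, KRT14, KRT15, KRT16, KRT17, KRT19, KRT23 and KRT222 on chromosome 17. Among these members, KRT80, KRT86, KRT7 and KRT18 had 5, 5, 4 and 3 peaks in the gene or within 1 kb, while others, such as KRT1 and KRT6A, had none. Their starts were not read, so the result for the 34 does not cover them. The keratin windows had a median GC content of 45.7% and a median of 2 CpG dinucleotides, with at most 8, compared with 62.7% and 22 over all protein-coding genes. Among the 4006 windows of protein-coding genes with at most 8 CpG dinucleotides, 16.3% overlapped a peak.

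The letters TATAAA, searched on both strands as the core of a TATA box, were present in 20 of the 34 keratin windows (58.8%) and in 9.63% of the windows of all protein-coding genes. Of the 1525 windows that held these letters, 37.0% overlapped a peak. In 15 of the keratin windows the motif lay on the gene's strand with all 6 bases between 40 and 21 bases before the start (44.1%, against 3.58% of all windows), its first base 27 to 31 bases upstream. By cluster, TATAAA was found in 6 of 14 windows on chromosome 12 and in 14 of 20 on chromosome 17. The letters GGGCGG, a GC box searched on both strands, whose letters cannot overlap those of TATAAA, were in 6 of 34 keratin windows (17.6%) and in 58.5% of all windows. A match describes the letters and not a bound site.

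The last 60 bases before the start are shown for 8 genes to let the position of the motif be compared between keratin classes, 5′ to 3′ on the minus strand of GRCh38.p14, with TATAAA in capitals.
KRT76 (mucosal, chr12:52777346-52777405): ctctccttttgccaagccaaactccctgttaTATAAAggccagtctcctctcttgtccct
KRT3 (corneal, chr12:52796118-52796177): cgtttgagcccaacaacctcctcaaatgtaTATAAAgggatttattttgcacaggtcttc
KRT5 (basal layer, chr12:52520395-52520454): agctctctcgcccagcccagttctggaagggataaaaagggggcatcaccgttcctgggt
KRT28 (inner root sheath, chr17:40799960-40800019): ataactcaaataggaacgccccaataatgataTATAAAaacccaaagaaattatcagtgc
KRT10 (suprabasal epidermis, chr17:40822615-40822674): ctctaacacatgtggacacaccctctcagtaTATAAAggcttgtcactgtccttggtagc
KRT33A (hair shaft, chr17:41350829-41350888): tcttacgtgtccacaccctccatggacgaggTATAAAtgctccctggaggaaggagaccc
KRT33B (hair shaft, chr17:41369814-41369873): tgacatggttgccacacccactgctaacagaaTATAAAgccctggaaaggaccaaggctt
KRT31 (hair shaft, chr17:41397609-41397668): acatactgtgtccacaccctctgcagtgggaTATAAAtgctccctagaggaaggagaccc
In 7 of these the motif begins 28 to 30 bases before the start, and KRT5 holds none in its window. The 8 genes were picked and hold the motif more often than the rest. It was so placed in 15 of all 34 keratin windows and in 3 of the 14 on chromosome 12. The 8 therefore do not show how common the motif is in a class. Compared base by base without gaps, KRT33A shared 38 of the 60 bases with KRT31 and 23 with KRT33B.

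KRT8, the only simple keratin with a peak among the 34, had, of the starts in the promoter table, the one closest to a peak, at 343 bp. The 5′ end of its extent, a different position, was itself covered by a peak. The 250 bases before that start are shown because the nearest peak begins just upstream of them. That peak ran from 52926812 to 52927777 and had 52.0 tags.
KRT8 (chr12:52926470-52926719, minus strand): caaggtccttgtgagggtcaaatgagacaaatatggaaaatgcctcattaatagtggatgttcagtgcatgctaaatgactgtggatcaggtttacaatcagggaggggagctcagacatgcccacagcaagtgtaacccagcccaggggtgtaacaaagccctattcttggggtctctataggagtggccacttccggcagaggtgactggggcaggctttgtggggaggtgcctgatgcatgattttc
This stretch held no TATAAA. The next closest starts in that table were those of KRT75 at 0.751 kb and KRT79 at 1.5 kb.

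Peaks on chromosome 12 were densest at both edges of the cluster, where KRT7, KRT8 and KRT18 sit, and sparsest in its middle. The cluster spans 784 kb from KRT80 to KRT18 and held 65 peaks, 82.9 per Mb. This was close to the 82 per Mb of the 1 Mb on each side and 2.14 times the density of the whole chromosome, 38.8 per Mb. In bins of 100 kb, the first bin, with KRT80 and KRT7, held 22 peaks with a median pileup of 41.7 tags. The last bin, of 84 kb with KRT8 and KRT18, held 15 with a median of 41.1 tags. Together these hold 37 of the 65 peaks. The bins from 100 to 300 kb, with KRT86 to KRT6B, held 9 peaks each, 90 per Mb, with medians of 31.1 and 19.5 tags. The bin from 600 to 700 kb held 5. The 3 bins from 300 to 600 kb, with 10 keratin genes from KRT6C to KRT77, held 5 peaks in all, and the last of them, with KRT1 and KRT77, held none. Without KRT80, KRT7, KRT8 and KRT18 the remaining cluster runs from KRT86 to KRT78, which also drops the stretches between the omitted genes. Its density was 45.3 per Mb, above that of the chromosome and below the 82 per Mb on the sides of the whole cluster. Counting only peaks of at least 4-fold enrichment gave 40.8 per Mb for the whole cluster. That filter keeps 66460 of the 106415 peaks of the library. The chromosome and the 2 sides were not counted with it, so this value cannot be set against the densities above.

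**Figure D2:**
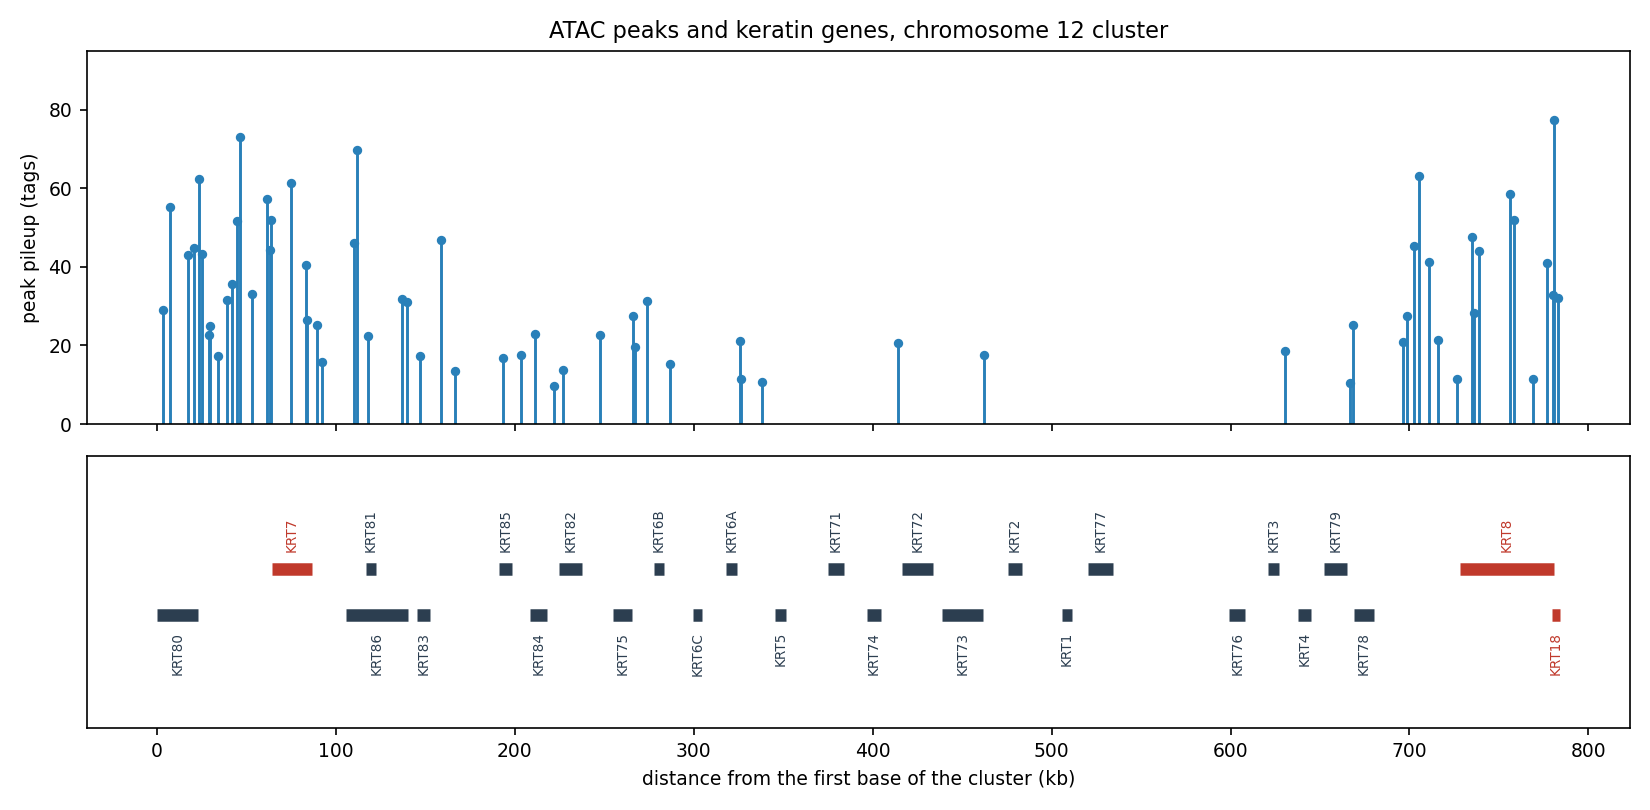
Pileup of each peak (tags, upper panel) and the extent of each keratin gene (lower panel, simple keratins in red) along the chromosome 12 cluster, in kb from the start of KRT80. Peaks above 40 tags stand in the first 158.8 kb, through KRT86 to one of 46.8 tags nearest to KRT83, and again from 702.3 kb on, and the longest stretch without a peak, 168 kb, holds KRT2, KRT1, KRT77, KRT76 and KRT3.

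KRT7, a type II keratin of simple and ductal epithelia, is the second gene from the KRT80 edge. It had 4 peaks, with pileups of 52.0, 61.4, 40.5 and 26.5 tags. The first lay across one end of the gene, on chromosome 12 from 52232637 to 52233420, and the highest lay inside it, from 52243256 to 52244586, over 1331 bp. All 4 exceeded the median of 21.6 tags over all peaks of the library. Their fold enrichments were low, from 1.87 to 3.25, because fold is pileup over a local background estimated within 10000 bp, and that background was 13.7 to 19.1 tags here compared with a median of 3.32 over all peaks.

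KRT80, a type II keratin of differentiating epithelia and the outermost gene, had 5 peaks with pileups of 29, 55.2, 43, 44.8 and 62.5 tags. The highest covered one end of the gene, on chromosome 12 from 52191850 to 52192743. Between KRT80 and KRT7, peaks overlapped the long noncoding RNA genes LINC02874 and LINC00592. One in LINC00592, from 52215365 to 52216043, reached 73 tags and was the second highest of the cluster. Within 25 kb of KRT80 there were 19 peaks, the most of any keratin gene, and within 25 kb of KRT7 there were 14.

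KRT8 and KRT18, the main keratin pair of simple epithelia, are the last 2 genes of the cluster. KRT8 had 10 peaks in or within 1 kb of the 52.7 kb that the table gives it, with pileups from 11.4 to 77.4 tags. KRT18, of 4.05 kb, had 3, with pileups of 33, 77.4 and 32 tags. The extents overlap, and 2 peaks belong to both genes, among them the highest of the cluster, on chromosome 12 from 52949693 to 52950144, with 77.4 tags and a 5.02-fold enrichment. This peak stood above 98.3% of all peaks of the library by pileup. Of the peaks between KRT78 and KRT8, 3 were above 40 tags, with 45.3, 63.1 and 41.1, the highest at 22.6 kb from KRT8.

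KRT86, a hair keratin beside KRT7, was the other gene of this cluster with several peaks. Its 5 peaks had pileups of 46.1, 69.8, 22.4, 31.8 and 31.1 tags. The highest, on chromosome 12 from 52280123 to 52281473, spanned 1351 bp. The peak of 22.4 tags lies in KRT81 as well, whose extent falls inside that of KRT86, and it is the only peak of KRT81.

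The further hair keratins of chromosome 12 had 1 peak each. Pileups were 17.4 tags at KRT83, 16.8 at KRT85, 23 at KRT84 and 13.9 at KRT82. These 4 peaks lay inside the genes, away from both ends, and stood at the lowest local background that the caller uses, 2.37 tags, or within 0.01 tags of it. This floor is inversely proportional to the genome size the caller was given, which was the mouse preset, so the folds of peaks at the floor, and how many stand at it, depend on that setting. KRT75, a keratin of the hair follicle companion layer, had a peak of 27.6 tags at 0.751 kb from the gene. KRT73 had one of 17.6 tags at 0.031 kb from its end, and KRT78 one of 25.3 tags across its end.

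The epidermal type II keratins were bare. KRT5, the type II keratin of basal cells, had its nearest peak at 7.13 kb. KRT1, of the suprabasal epidermis, lay 43.6 kb from the nearest peak and KRT77 58.5 kb, the largest distance of any member. KRT6A, induced in wounded epidermis, had its nearest peak at 1.16 kb, with 21.1 tags, and KRT6B and KRT6C had theirs at 3.52 and 12.4 kb. No peak was called within 1 kb of KRT2, KRT3, KRT4, KRT71, KRT72, KRT74, KRT76 or KRT79.

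On chromosome 17 the peaks were fewer than around the cluster. The cluster spans 970 kb from KRT222 to KRT17 and held 42 peaks, 43.3 per Mb, which is 0.373 times the 116 per Mb of the 1 Mb on each side and 0.739 times the 58.6 per Mb of the chromosome. Its peaks had a median pileup of 19 tags, compared with 35.1 and 28.5 tags on the 2 sides, and 45.2% stood at the lowest local background, compared with 7.48% and 8.8%. Over the whole chromosome the median was 24.5 tags and 24.8% of the peaks stood at that background. Of the 42 peaks, 9 lay in a keratin gene, 3 within 1 kb of one and 30 between them. Without the 322 kb of keratin-associated protein genes, which held 11 peaks, the density was 47.9 per Mb. With as many peaks as the 4-fold filter keeps, taken by highest pileup, it was 23.7 per Mb. The 2 sides and the chromosome were not counted in that way.

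**Figure D3:**
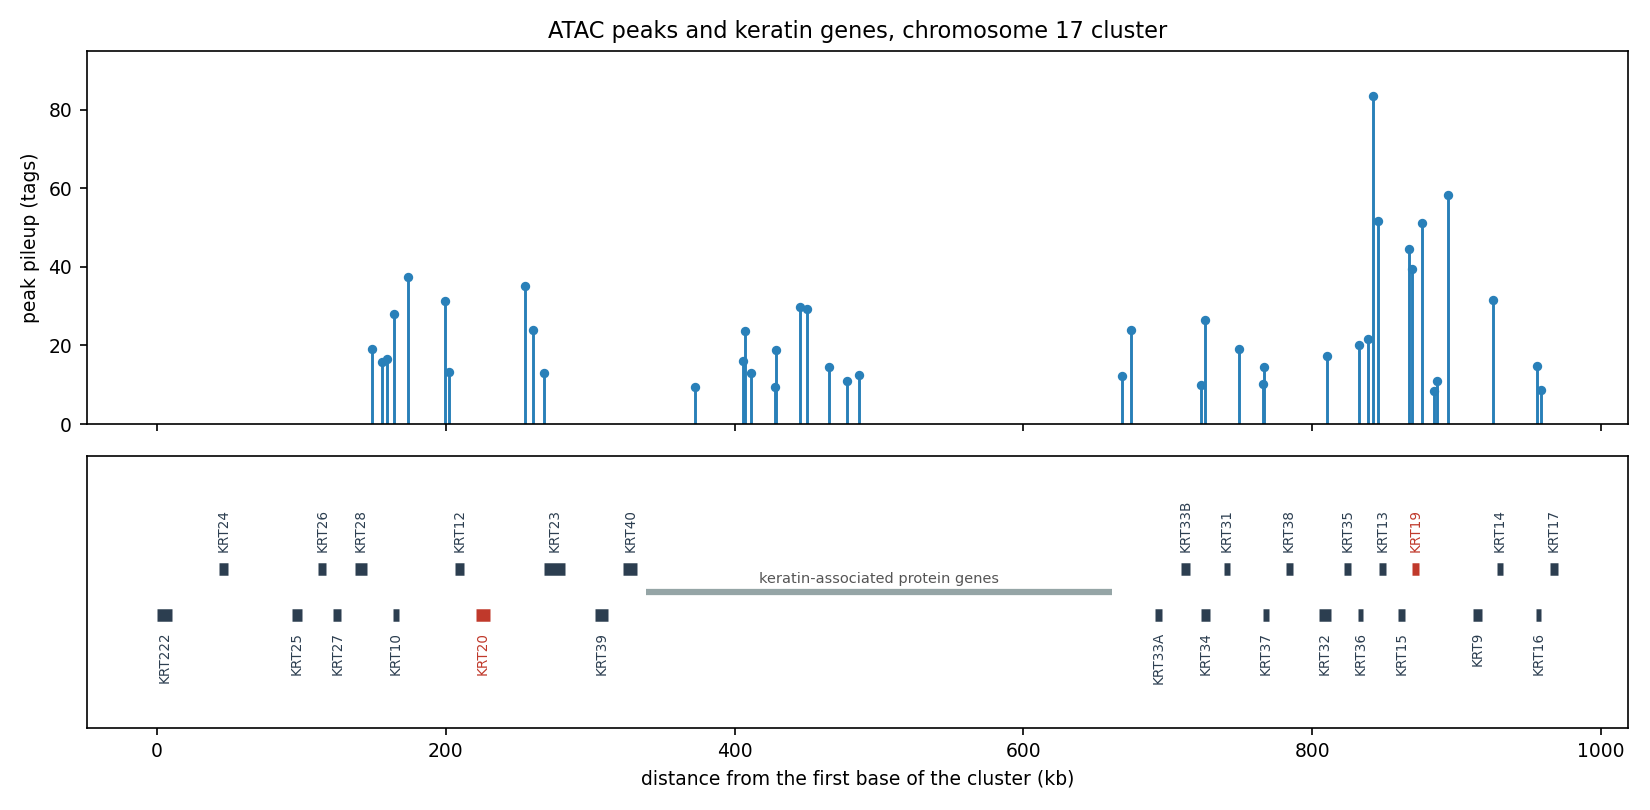
Pileup of each peak (tags, upper panel) and the extent of each keratin gene (lower panel, simple keratins in red, the stretch of keratin-associated protein genes in grey) along the chromosome 17 cluster, in kb from the start of KRT222. The 6 peaks above 38 tags lie between KRT36 and KRT9, around KRT19, and no peak lies in the first 149 kb.

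KRT19, the smallest keratin and a partner of KRT8 in simple epithelia, is not at an edge: 4 keratin genes separate it from the KRT17 end. Its 1 peak crossed one end of the gene, on chromosome 17 from 41523459 to 41524546, with 39.5 tags over 1088 bp and a 3.63-fold enrichment. Peaks of 44.5 tags at 1.45 kb and 51.2 tags at 1.74 kb lay on its 2 sides, outside the window of 1 kb. The bin of 100 kb that holds KRT32, KRT35, KRT36, KRT13, KRT15 and KRT19 had 11 peaks with a median of 39.5 tags. The highest peak of the cluster lay in it, from 41496720 to 41497261, with 83.5 tags and a 7-fold enrichment, at 3.72 kb from KRT13 and above 99% of all peaks by pileup. The second highest, of 58.4 tags over 1880 bp, lay 16.3 kb from KRT9, on the side of KRT19.

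KRT13, a type I keratin of mucosal epithelia, had a peak of 51.6 tags at 0.383 kb from the gene, on chromosome 17 from 41500012 to 41500598. KRT15, which lies between KRT13 and KRT19 and marks basal cells, had none within 1 kb and its nearest at 2.39 kb. KRT20, the simple keratin of gut epithelium, was the one simple keratin without a peak. Its nearest was 18.6 kb away with 13.3 tags, and it is interior, with 8 keratin genes between it and the KRT222 edge.

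KRT10, the type I partner of KRT1, had a peak of 28 tags inside the gene, on chromosome 17 from 40818699 to 40819739, which also overlaps the long noncoding RNA gene KRT10-AS1. Its annotated start, whose upstream bases are printed above, lay 2.88 kb from that peak. KRT14, the type I keratin of basal cells, had its nearest peak at 2.33 kb. KRT9, of palm and sole epidermis, and KRT12, the corneal partner of KRT3, had theirs at 7.17 and 3.99 kb. KRT16, induced with KRT6A in wounded epidermis, had 2 peaks of 14.8 and 8.78 tags, and KRT17 had its nearest at 1.06 kb with 11.5 tags. KRT23 had 1 peak, of 13.1 tags, at 0.06 kb from the gene.

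Of the 11 hair shaft keratins of chromosome 17, 4 had a peak. KRT34 had 2, of 26.5 and 10.1 tags, and KRT37 had 2, of 14.6 and 10.2 tags. KRT32 had 1 of 17.4 tags and KRT36 had 1 of 20 tags. KRT31, KRT33A, KRT33B, KRT35, KRT38, KRT39 and KRT40 had none. At the KRT222 edge, KRT222, KRT24 and the inner root sheath keratins KRT25, KRT26, KRT27 and KRT28 lay together in the 149 kb without a peak.

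By class, a peak in the gene or within 1 kb was found at 4 of 5 simple keratins (KRT7, KRT8, KRT18 and KRT19) and at 10 of 17 hair shaft keratins. It was found at 2 of 6 keratins of wounding and appendages, at 2 of 6 of mucosa and cornea, at 1 of 5 suprabasal keratins, at 1 of 8 of the inner root sheath and at 0 of 3 of the basal layer. The remaining class, with KRT23, KRT24, KRT79, KRT80 and KRT222, had 2 of 5. Over all protein-coding genes the share was 83.7%, so the 80% of the simple keratins was near it. A peak at a gene end was found at 4 of the 17 hair shaft keratins (23.5%), against 72.8% of protein-coding genes. In every other class the count at gene ends was the same as in the gene or within 1 kb. The Wilson intervals of these small classes are wide, 37.6% to 96.4% for the simple keratins and 0% to 56.1% for the basal layer, and they overlap. The highest peak of each gene had a median of 69.4 tags (39.5 to 77.4) over the 4 simple keratins and 18.7 tags over the 10 hair shaft keratins, among which KRT86 alone exceeded 27 tags. Without KRT7, KRT8, KRT18, KRT19 and KRT80 the share over the remaining 50 keratin genes was 34%.

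**Figure D4:**
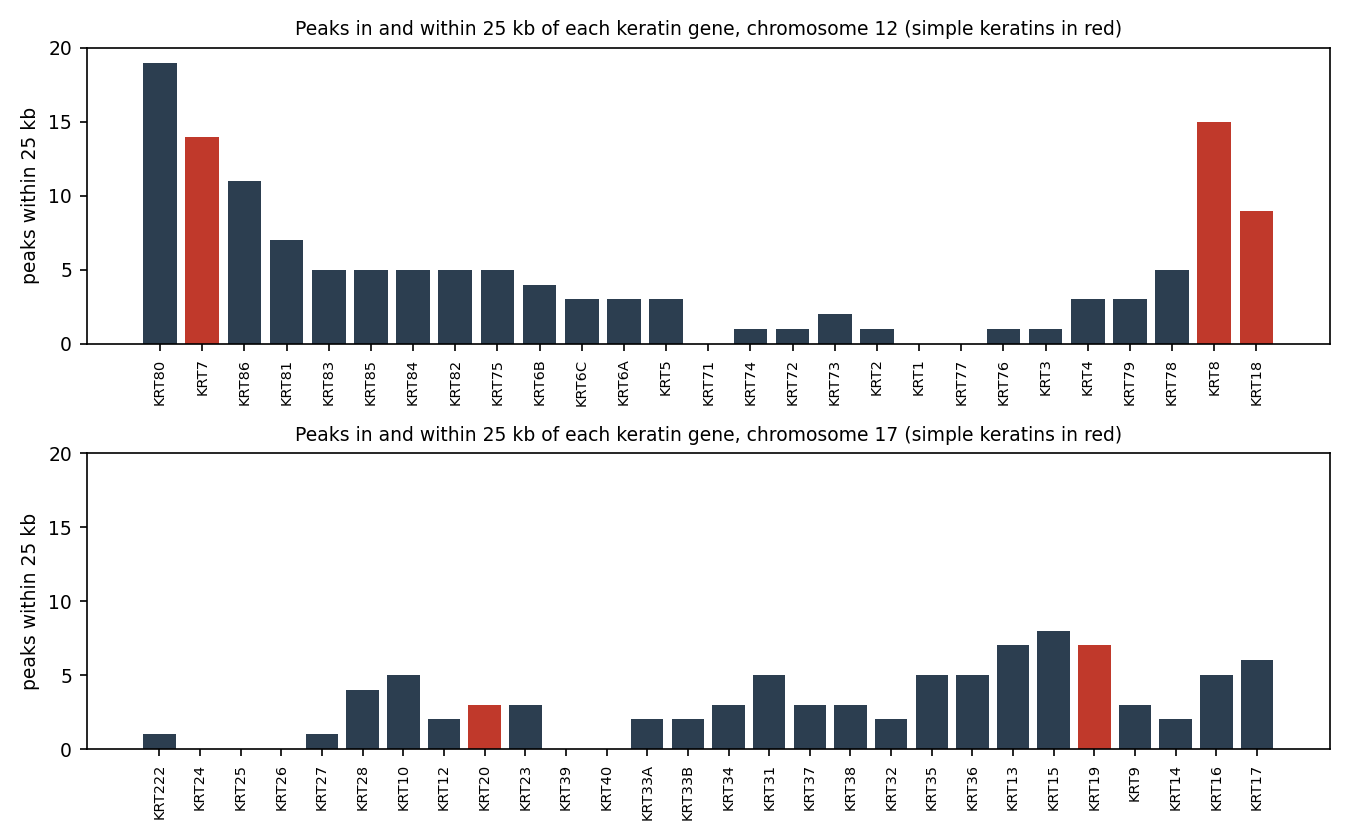
Number of peaks overlapping each keratin gene or the 25 kb on either side of it, in the order of the genes along chromosome 12 (upper panel) and chromosome 17 (lower panel), with simple keratins in red. Counts run from 0 at 8 genes to 19 at KRT80, and the windows of neighbouring genes overlap.

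The number of peaks within 25 kb of a gene had a median of 3. It was 10 or more for 4 genes, KRT80 with 19, KRT8 with 15, KRT7 with 14 and KRT86 with 11. KRT18 had 9, KRT15 had 8, and KRT19, KRT13 and KRT81 had 7. The count was 0 for KRT71, KRT1, KRT77, KRT24, KRT25, KRT26, KRT39 and KRT40. Longer genes have longer windows. Per Mb of window, KRT80 (260), KRT7 (193), KRT18 (167) and KRT8 (146) came first, followed by KRT15 (145), KRT86 (130), KRT13 (128) and KRT19 (128). Windows overlap, so these counts are not independent.

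Of the 107 peaks of both clusters, 31 had at least 36 tags, the 75th percentile of all peaks in the library, 24 of them on chromosome 12 and 7 on chromosome 17. At the other end, 33 peaks stood at the lowest local background, 14 on chromosome 12 (21.5%) and 19 on chromosome 17 (45.2%). Over all peaks of the library the share was 34.7%. It was 34.2% over the whole of chromosome 12 and 24.8% over the whole of chromosome 17. The median local background was 6.51 tags in the chromosome 12 cluster and 2.56 tags in the chromosome 17 cluster.

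**Figure D5:**
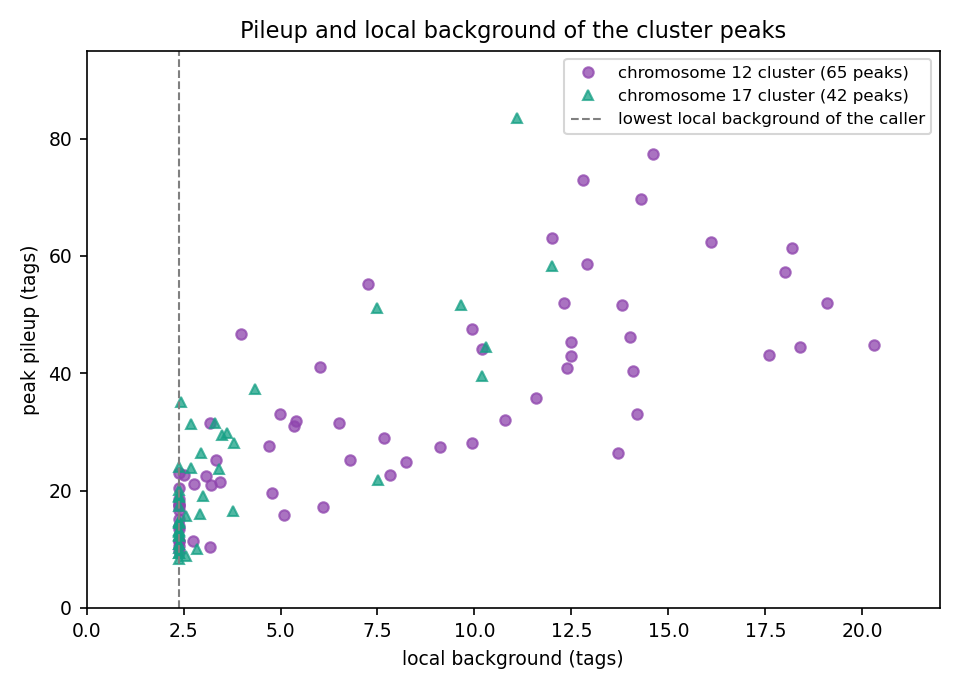
Pileup of each cluster peak (tags) against its local background (tags), for chromosome 12 (circles) and chromosome 17 (triangles); the dashed line marks the lowest local background the caller uses, 2.37 tags. Peaks above 40 tags have backgrounds of 3.97 tags or more, and 33 of the 107 peaks lie on the line.

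The window of 1 kb decides a few calls. Just inside it were KRT75 at 0.751 kb, KRT13 at 0.383 kb, KRT23 at 0.06 kb and KRT73 at 0.031 kb, and 18 genes had a peak in the gene itself. Just outside were KRT17, KRT6A, KRT79, KRT72, KRT14 and KRT15, with a nearest peak at 1.06, 1.16, 1.5, 2.24, 2.33 and 2.39 kb. A distance of over 10 kb to any peak was found for 15 genes. KRT6A, KRT6B and KRT6C, KRT14, KRT16 and KRT17, and KRT81, KRT83 and KRT86 have near-identical relatives, and how reads that match several copies were handled is not given in the sources used here, so both the presence of a peak, as at KRT16, KRT81, KRT83 and KRT86, and its absence at the others are uncertain.

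The genes next to the clusters were accessible. On chromosome 12, SMIM41, 60.7 kb before KRT80, had 2 peaks of up to 28 tags, neither at an end, and EIF4B, 53.5 kb after KRT18, had 2 with up to 52.2 tags. On chromosome 17, SMARCE1, 6.85 kb before KRT222, had 1 of 29.4 tags, and EIF1, 64.3 kb after KRT17, had 1 of 85.2 tags over 1590 bp.

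Other genes of the filament system were read in the same way. Of 16 genes of other intermediate filaments, 12 had a peak, each at a gene end (75%, 50.5% to 89.8%), against 83.7% of protein-coding genes with a peak and 72.8% with one at an end. LMNB1, of the nuclear lamina, reached 98 tags, LMNA 91.3, and VIM, which encodes vimentin, 54.9 tags over 2530 bp. DES, of muscle filaments, and the neurofilament genes NEFH, NEFL and NEFM had none. Of 17 genes that anchor filaments at junctions, 11 had a peak, each at an end (64.7%, 41.3% to 82.7%). The plakin PLEC reached 124 tags, the plakoglobin gene JUP 82.4, DST 76.4, and the plakophilin genes PKP4 and PKP3 73.7 and 68.9, while DSP, the desmosomal plakin that binds keratin, had 1 peak of 13.5 tags (DSP and DSG2, and EPCAM and CLDN4 among the markers, are named after their values were seen). The desmosomal cadherin genes DSC1, DSC2, DSC3, DSG1, DSG3 and DSG4 had none, and DSG2 had 1 of 11 tags.

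The cell type was checked against markers read from the same peaks. All 12 endothelial marker genes had a peak at a gene end, among them PECAM1, CDH5 and VWF, and their highest peaks reached 31.4 to 95.7 tags. Of 12 epithelial marker genes, 11 had a peak in the gene or within 1 kb (91.7%, against 83.7% of protein-coding genes) and 7 at a gene end (58.3%, against 72.8%), with a median highest pileup of 24.1 tags and a range of 8.64 to 58.9. The peaks of TP63, GRHL2 and CDH1 lay away from the gene ends and reached 58.9, 40.2 and 25.9 tags. ESRP1 had none. GRHL1, ELF3 and CLDN7 each had a peak at an end, and their highest peaks had 43.3, 24.6 and 24.1 tags. EPCAM and CLDN4 had peaks of 9.31 and 8.64 tags, near the lowest peak of the library at 8 tags. Markers of other cell types had peaks too. All 5 mural marker genes had one, 4 of them at an end, with highest peaks of 29.6 to 56.8 tags, the latter at RGS5. All 3 leukocyte marker genes had one at an end. Their highest peaks anywhere in the gene or within 1 kb had 93.6 tags at CD68, 59.1 at PTPRC and 28.5 at CD3E. The part of cells of another type in the keratin peaks was not tested. In this bulk library a site open in few cells and a site weakly open in many cannot be told apart.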

How the data were processed

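Per the file headers, the authors called broad peaks with MACS 2.2.7.1 on 1 library without a control, in single-end mode, with a tag shift of -100 bp and an extension to 200 bp, q of 0.05 and 0.1 for broad regions, 1 tag kept per position (22188172 of 31532245) and an effective genome size of 1870000000 bp, the mouse preset. The deposited list gives each peak's length, pileup signal and fold ratio, with the p-value and q-value on a −log10 scale, all as the authors' caller wrote them. It names no build. The submitters' processing notes name GRCh38 and mm10, and Bowtie2, SAMtools 1.13 and Picard among their tools, without roles. Against the gene table, 73.9% of protein-coding genes of chromosome 12 and 77.6% of chromosome 17 had an end peak, and shifts of 2000 bp or more gave at most 35.8% and 43.7%.

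Here peaks were overlapped (at least 1 bp) with gene extents in Python 3.11.15 with pandas 2.3.3. The local background was derived as (pileup + 1)/fold − 1. Shares carry Wilson intervals from scipy 1.17.1, except the limit for the keratin promoter windows, which is 3 divided by their number. The overlap code was tested on simulated data. Gene classes, members and lists were chosen with earlier results of these data known. Genes named are all keratin genes with a peak, the simple keratins, the main epidermal keratins, the nearest neighbours of each cluster and, per list, up to 6 with and 6 without a peak; other members are named to account for all 55. With 1 library there was no replicate and no test. The RNA tables were not used.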

Additional observations from a re-analysis of the deposited data

How the results depend on the processing

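Of 33 alternative values, 29 stayed near the reported one and 4 moved. A share counted as near inside its 95% Wilson interval, a density inside 1.5-fold, and a median pileup or length inside its 95% binomial interval. The share of keratin genes with a peak in the gene or within 1 kb ran from 30.9% (17 genes; as many peaks as the 4-fold filter keeps, by highest pileup) to 50.9% (window of 2500 bp), where all protein-coding genes had 76.1% and 85.5%. The share with an end peak moved to 50.9% in windows of 2500 bp. The density of the chromosome 12 cluster moved to 40.8 per Mb with peaks of at least 4-fold and to 45.3 per Mb without KRT80, KRT7, KRT8 and KRT18. The density of the chromosome 17 cluster moved to 23.7 per Mb with the pileup filter. These moves came with fewer peaks, a wider window or fewer genes, and what set their size was not tested. Of the 65 peaks of the chromosome 12 cluster, the 4-fold filter kept 32 and the pileup filter, of equal size over the library, kept 53. The pileup filter, the omission of the simple keratins with KRT80, the count of shared peaks once and the omission of the keratin-associated protein genes were added once values were known. No paired analysis was possible because no result comes from a test and only 1 ATAC library was used. The lowest pileup called was 8 tags, so openness below that level was not detectable. Where the local background is higher, more tags are needed for a call, so the limit differs along the clusters. At KRT7, a peak of 26.5 tags over a background of 13.7 tags had a fold of 1.87 and a −log10 q of 1.44. With 1 library the error between cultures is unknown.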

Other observations

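Keratin-associated protein genes, which encode matrix proteins of hair, fill 322 kb in the middle of the chromosome 17 cluster. Of the 34 such genes on chromosome 17, 6 had a peak in the gene or within 1 kb (17.6%, 95% Wilson interval 8.35% to 33.5%), compared with 9 of the 28 keratin genes of that chromosome (32.1%, 17.9% to 50.7%), and the intervals overlap. The share over all protein-coding genes was 83.7%. The keratin-associated protein genes are shorter, with a median of 0.939 kb against 5.75 kb. Per Mb of gene with 1 kb on each side, their peaks numbered 60.5, against 51.9 at those keratin genes, with a peak near several genes counted for each. Their highest peaks had a median of 14.4 tags and ran from 9.4 to 29.4 tags. The stretch held 11 peaks, 34.1 per Mb. The longest stretch without a peak in either cluster, 181 kb, lay among these genes and held 16 of them and no keratin gene.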
